A study of Mus musculus with 11 samples.

Results

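Chemokines are small secreted proteins that draw cells along a concentration gradient. The CXC and CC families differ in the spacing of their first cysteines, and members of both bind receptors that signal through G proteins. Many chemokine genes are switched on by NF-kB after contact with inflammatory cytokines or microbial products, others also by interferons, and stromal cells and tumour cells can secrete them.

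The genes described here are 5 CXC chemokine genes (Cxcl12, Cxcl1, Cxcl2, Cxcl5 and Cxcl10) and 5 CC chemokine genes (Ccl2, Ccl5, Ccl7, Ccl8 and Ccl20), 10 of the 12393 genes measured. They were chosen by their levels and changes in these same 4 groups of arrays, so every value for them is a description and no test of them is read as support. A single-gene probe set was found for each of the 10, and Cxcl12 had 2, so 11 of the 22626 probe sets that are not controls carry them.

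The cells were mouse JB6 cells, a line used to study how attached cells come to grow without attachment in soft agar. The design asks whether reversible growth in agar, driven by a growth factor, and irreversible growth, in tumour cells, share changes in gene expression. The groups were RT101 colonies (3 arrays), RT101 monolayer cells (2 arrays), bFGF-JB6 colonies (3 arrays) and bFGF-JB6 monolayer cells (3 arrays). RT101 is a tumour variant of JB6 and got no growth factor. The bFGF-JB6 cells were of the parental clone 41-5A, given basic fibroblast growth factor (bFGF), at 10 ng/ml for the colonies. Colonies of both lines grew over soft agar and were taken on day 7. For how long, and at which dose, the bFGF-JB6 monolayer had been exposed is not given by the labels. Nor is the day on which the monolayer cells of either line were taken. All cells were grown in medium with fetal bovine serum. A comparison of RT101 with bFGF-JB6 holds the tumour state and the growth factor at once, and these cannot be told apart. A comparison of colonies with monolayer cells may also hold a difference in the day of harvest, and in bFGF-JB6 in the exposure to bFGF. Neither can be told apart from growth in agar.

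Values are log2 signals per probe set, so 1 unit is a doubling of signal. Array medians lay between 5.82 and 5.95, and the lower quartile of all values was 3.84, below which a signal is close to the bottom of the scale. A difference was called at an adjusted p below 0.05 in limma, over all genes. The labels do not say that replicate arrays stem from different cultures, so spreads and p-values measure the differences between these arrays, which may be technical. On 2 arrays the 3' probe sets of Gapdh exceeded the 5' probe sets more than on the others, by 0.354 in bFGF-JB6 colonies replicate 3 and by 0.194 in bFGF-JB6 monolayer replicate 1, against -0.083 to -0.014 elsewhere.

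Promoter sequences are shown for the members with the steepest changes, Cxcl12 and Ccl8, and for 3 CXC genes with a kappa-B motif. Each is the 250 bases before the gene's start, 5′ to 3′ on the gene's own strand, from RefSeq with build GRCm38.p6, and 6 of the 10 members were found there. Capitals mark the motifs that were searched: kappa-B, bound by NF-kB, the interferon element core GAAANNGAA and the AP-1 motif TGANTCA on both strands, and TATAAA on the gene's strand.
Cxcl12, chr6:117168285-117168534, forward strand: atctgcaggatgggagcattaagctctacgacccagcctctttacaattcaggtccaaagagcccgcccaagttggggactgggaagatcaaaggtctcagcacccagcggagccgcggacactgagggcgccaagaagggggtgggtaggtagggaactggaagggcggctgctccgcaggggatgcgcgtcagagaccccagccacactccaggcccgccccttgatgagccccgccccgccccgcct
Ccl8, chr11:82114935-82115184, forward strand: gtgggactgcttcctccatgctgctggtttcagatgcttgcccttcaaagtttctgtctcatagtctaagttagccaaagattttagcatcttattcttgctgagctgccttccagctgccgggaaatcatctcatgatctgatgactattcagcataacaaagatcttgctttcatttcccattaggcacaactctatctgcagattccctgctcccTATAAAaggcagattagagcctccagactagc
Cxcl1, chr5:90890995-90891244, forward strand: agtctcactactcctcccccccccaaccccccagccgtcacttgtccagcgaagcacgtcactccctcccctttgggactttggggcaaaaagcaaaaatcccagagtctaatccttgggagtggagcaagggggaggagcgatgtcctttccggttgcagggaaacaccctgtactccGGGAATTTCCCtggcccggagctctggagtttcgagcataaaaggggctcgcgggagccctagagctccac
Cxcl2, chr5:90903649-90903898, forward strand: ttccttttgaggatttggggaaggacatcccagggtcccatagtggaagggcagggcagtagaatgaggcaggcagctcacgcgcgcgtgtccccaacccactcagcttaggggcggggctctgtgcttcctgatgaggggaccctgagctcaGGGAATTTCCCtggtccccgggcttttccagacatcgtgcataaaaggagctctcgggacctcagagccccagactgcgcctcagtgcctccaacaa
Cxcl10, chr5:92348890-92349139, reverse strand: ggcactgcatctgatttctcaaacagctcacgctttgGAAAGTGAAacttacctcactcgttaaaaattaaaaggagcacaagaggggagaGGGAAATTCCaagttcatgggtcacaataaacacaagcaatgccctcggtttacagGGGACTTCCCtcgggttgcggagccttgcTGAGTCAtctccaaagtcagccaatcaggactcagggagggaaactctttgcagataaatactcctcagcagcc

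Of 32851 promoters of this length in the same table, 3.9% held a kappa-B match, 7.13% the interferon core, 6.75% the AP-1 motif and 7.59% TATAAA. A kappa-B match stood in 4 of the 6 member promoters. The neighbouring genes Cxcl1 and Cxcl2 held the same pair of overlapping matches, 1 per strand, in bases 71 to 61 before the start of Cxcl1 and 97 to 87 before that of Cxcl2. Cxcl10 held 2, in bases 159 to 150 and 103 to 94, with the interferon core at 213 to 205 and the AP-1 motif at 74 to 68. Ccl20, not printed, held 1 in bases 80 to 71. Ccl8 held TATAAA at 32 to 27, and these letters were not found in the window of Cxcl12. A match is a description of the sequence and does not show that a factor bound there.

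In colonies the 10 genes took different paths. In RT101 colonies 6 members were called higher than in monolayer cells (Cxcl12, Cxcl10, Ccl2, Ccl5, Ccl7 and Ccl8) and 1 lower (Ccl20), where 17.0% of all genes were called higher and 15.4% lower. In bFGF-JB6 colonies 5 were called higher (Cxcl12, Cxcl1, Cxcl5, Cxcl10 and Ccl8) and 3 lower (Ccl2, Ccl5 and Ccl7), where 14.1% of all genes were called higher and 15.3% lower. The median change of the members was 0.65 in RT101 and 0.36 in bFGF-JB6 on the log2 scale, and that of all genes was -0.01 and 0.03. Regardless of direction the median size was 0.66 in RT101 and 0.91 in bFGF-JB6, where all genes had 0.19 and 0.17. Cxcl12, Cxcl10 and Ccl8 were called higher in colonies of both lines. Nothing is read from these counts, since the changes themselves chose the genes.

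**Figure D1:**
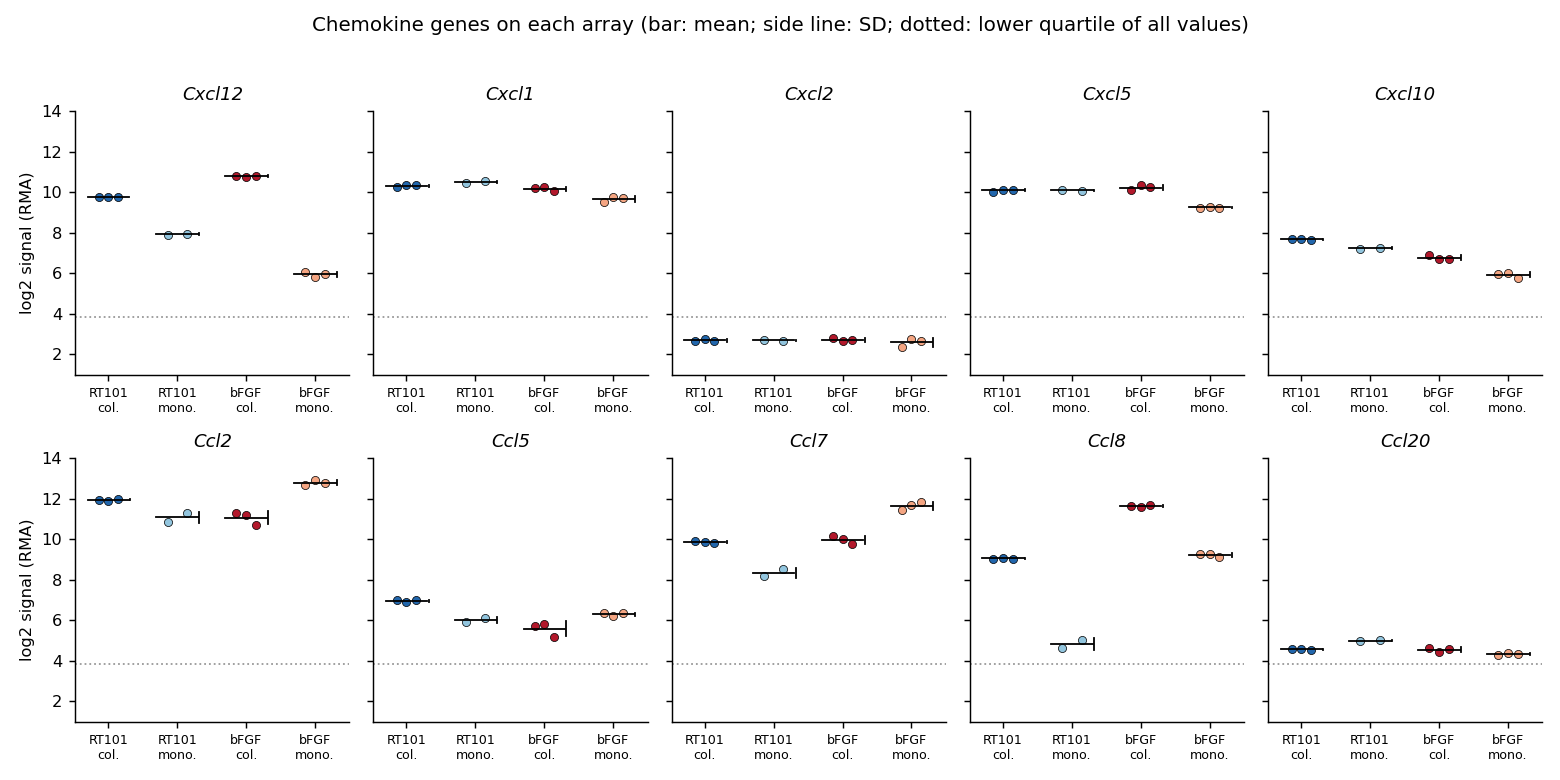
Log2 signal of each chemokine gene (vertical axis, 1 panel per gene, brightest probe set) on every array of the 4 groups, with the mean, the SD and, dotted, the lower quartile of all values. Ccl8 spans the widest range, with RT101 monolayer arrays at 4.61 and 5.02 and bFGF-JB6 colonies at 11.59 to 11.70, while Cxcl2 stays below the dotted line on all 11 arrays.

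Cxcl12 encodes the ligand of Cxcr4 and Ackr3, best known for holding stem cells in bone marrow and for guiding migrating tumour cells. Its brighter probe set, 1448823_at, gave a log2 signal of 9.78, 9.75 and 9.74 in RT101 colonies, against 7.88 and 7.95 in RT101 monolayer cells. It gave 10.81, 10.72 and 10.80 in bFGF-JB6 colonies, against 6.06, 5.80 and 5.97 in bFGF-JB6 monolayer cells. No array of any group overlapped with another group, and colonies of both lines lay above both monolayers. Signal was higher in colonies by 1.84 (SE 0.09, 3.58-fold) in RT101 and by 4.83 (SE 0.08, 28.5-fold) in bFGF-JB6, so the RT101 change was smaller by a log2 difference of -2.99 (SE 0.13).

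The weaker Cxcl12 probe set, 1417574_at, did not follow in RT101. It gave 6.34, 5.99 and 6.25 in RT101 colonies, against 6.54 and 6.75 in RT101 monolayer cells, a difference of -0.45 (SE 0.17, 95% confidence interval -0.83 to -0.08) that was not called among all probe sets. In bFGF-JB6 it gave 6.75, 6.36 and 6.75 in colonies, against 4.44, 4.05 and 4.58 in monolayer cells, a difference of 2.26 (SE 0.15). Both probe sets were thus higher in bFGF-JB6 colonies, while in RT101 they went opposite ways. The mean of both probe sets was higher by 0.69 in RT101 colonies, against 1.84 on the brighter one alone. Which transcripts each probe set reads was not tested.

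Cxcl1, Cxcl2 and Cxcl5 encode ligands of the neutrophil receptor Cxcr2. Cxcl1 had log2 signals of 10.27, 10.34 and 10.33 in RT101 colonies, against 10.45 and 10.54 in RT101 monolayer cells. It had 10.22, 10.24 and 10.05 in bFGF-JB6 colonies, against 9.52, 9.78 and 9.70 in bFGF-JB6 monolayer cells. Its highest group was the RT101 monolayer and its lowest the bFGF-JB6 monolayer, with no overlap between groups next to each other in that order. The change in colonies was -0.18 (SE 0.10, interval -0.40 to 0.04) in RT101, which was not called, and 0.50 (SE 0.09, 1.42-fold) in bFGF-JB6.

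Cxcl5 lies in the same chromosome 5 cluster of chemokine genes, beside Ppbp and Pf4. It had 10.03, 10.11 and 10.12 in RT101 colonies, against 10.09 and 10.06 in RT101 monolayer cells. It had 10.08, 10.33 and 10.23 in bFGF-JB6 colonies, against 9.23, 9.26 and 9.23 in bFGF-JB6 monolayer cells. The bFGF-JB6 monolayer alone stood apart, and the 2 RT101 groups overlapped, as did the colonies of both lines. Cxcl5 was higher in bFGF-JB6 colonies by 0.97 (SE 0.08, 1.96-fold). In RT101 the difference was 0.01 (SE 0.09, interval -0.19 to 0.21).

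Cxcl2, next to Cxcl1 on chromosome 5, lay at or below the lower quartile on all 11 arrays, between 2.36 and 2.81. All 4 groups overlapped, with changes in colonies of 0.00 (SE 0.12) in RT101 and 0.11 (SE 0.10) in bFGF-JB6, neither of which was called. At such signals a fall or a small change could not be seen on these arrays. In no group did Cxcl2 rise above the lower quartile, which does not show that the gene was silent.

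Cxcl10, which attracts activated T cells through Cxcr3 and is a textbook interferon target, was higher in colonies of both lines. It had 7.68, 7.66 and 7.65 in RT101 colonies, against 7.20 and 7.26 in RT101 monolayer cells. It had 6.89, 6.71 and 6.70 in bFGF-JB6 colonies, against 5.97, 6.03 and 5.78 in bFGF-JB6 monolayer cells. Both RT101 groups lay above both bFGF-JB6 groups, and no groups overlapped. Cxcl10 was higher by 0.44 (SE 0.10, 1.35-fold) in RT101 colonies and by 0.84 (SE 0.09, 1.79-fold) in bFGF-JB6 colonies. The difference of these changes, -0.40 (SE 0.13), was called but is fragile: it was not called with the title numbers as a replicate block, without bFGF-JB6 monolayer replicate 3, without bFGF-JB6 colonies replicate 1 or without any single RT101 array, where it lay between -0.43 and -0.33.

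**Figure D2:**
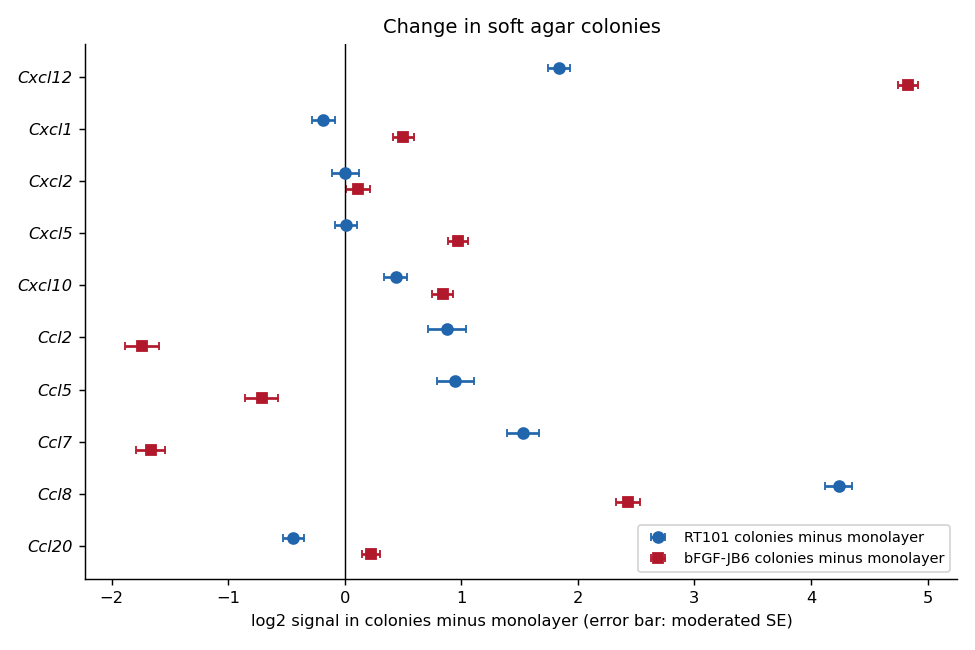
Log2 signal in colonies minus monolayer (horizontal axis) for each gene, RT101 as circles and bFGF-JB6 as squares, with the moderated SE. Ccl2, Ccl5 and Ccl7 lie right of 0 in RT101 (0.87, 0.95 and 1.53) and left of 0 in bFGF-JB6 (-1.74, -0.71 and -1.67), while Ccl8 and Cxcl12 lie right of 0 in both.

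Ccl2 and Ccl7 encode monocyte chemoattractants that act mainly through Ccr2, and mouse Ccl8 is known as a ligand of Ccr8. In the reference gene table they lie in 1 run of chemokine genes on chromosome 11, in the order Ccl2, Ccl7, Ccl11, Ccl12, Ccl8 and Ccl1. Ccl2 had 11.95, 11.91 and 11.98 in RT101 colonies, against 10.87 and 11.27 in RT101 monolayer cells. It had 11.29, 11.19 and 10.68 in bFGF-JB6 colonies, against 12.67, 12.92 and 12.79 in bFGF-JB6 monolayer cells. The bFGF-JB6 monolayer was the highest group, and the bFGF-JB6 colonies and RT101 monolayer, at the low end, overlapped. Ccl2 was higher in RT101 colonies by 0.87 (SE 0.16, 1.83-fold) and fell by 1.74 (SE 0.15, 3.34-fold) in bFGF-JB6 colonies.

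Ccl7 moved the same ways. It had 9.93, 9.85 and 9.83 in RT101 colonies, against 8.17 and 8.51 in RT101 monolayer cells. It had 10.16, 9.99 and 9.77 in bFGF-JB6 colonies, against 11.44, 11.67 and 11.81 in bFGF-JB6 monolayer cells. The colonies of both lines overlapped and lay between the 2 monolayers. Ccl7 was higher in RT101 colonies by 1.53 (SE 0.14, 2.89-fold) and fell by 1.67 (SE 0.12, 3.17-fold) in bFGF-JB6 colonies.

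Ccl8 was higher in colonies of both lines, and most so in RT101. It had 9.04, 9.09 and 9.03 in RT101 colonies, against 4.61 and 5.02 in RT101 monolayer cells. It had 11.63, 11.59 and 11.70 in bFGF-JB6 colonies, against 9.26, 9.27 and 9.10 in bFGF-JB6 monolayer cells. The RT101 colonies came close to the bFGF-JB6 monolayer, a mean of 9.06 against 9.21, but without overlap. Ccl8 was higher in colonies by 4.24 (SE 0.11, 18.9-fold) in RT101 and by 2.43 (SE 0.10, 5.39-fold) in bFGF-JB6.

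The other genes of that run on chromosome 11 are named for their position. Ccl11, the eosinophil chemoattractant eotaxin, had 5.94, 5.90 and 6.09 in RT101 colonies, against 3.09 and 2.82 in RT101 monolayer cells. It had 3.18, 3.22 and 3.52 in bFGF-JB6 colonies, against 3.11, 3.37 and 3.23 in bFGF-JB6 monolayer cells. Only the RT101 colonies stood above the bottom of the scale, by 3.02 over RT101 monolayer cells (SE 0.13, limma adjusted p = 1.14e-09), and the bFGF-JB6 difference was 0.07 (SE 0.11, adjusted p = 0.7). Ccl12 changed by 0.07 (SE 0.13) in RT101 and -0.30 (SE 0.11) in bFGF-JB6 and Ccl1 by 0.15 (SE 0.11) and 0.01 (SE 0.10), none of them called. In RT101 colonies the called genes of the run were thus all higher, while in bFGF-JB6 colonies Ccl2 and Ccl7 were lower and Ccl8 higher.

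Ccl5, which attracts T cells and monocytes, lies elsewhere on chromosome 11, beside Ccl9 and Ccl6. It had 7.01, 6.91 and 6.98 in RT101 colonies, against 5.92 and 6.12 in RT101 monolayer cells. It had 5.74, 5.83 and 5.16 in bFGF-JB6 colonies, against 6.34, 6.19 and 6.35 in bFGF-JB6 monolayer cells. The groups did not overlap, with RT101 colonies highest and bFGF-JB6 colonies lowest. Ccl5 was higher in RT101 colonies by 0.95 (SE 0.16, 1.93-fold) and fell by 0.71 (SE 0.14, 1.64-fold) in bFGF-JB6 colonies.

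Ccl2 and Ccl5 were both lowest, among all arrays, on bFGF-JB6 colonies replicate 3, the array with the raised 3' Gapdh signal. Without both arrays of raised 3' signal the bFGF-JB6 difference was -1.61 for Ccl2, -0.48 for Ccl5 and -1.67 for Ccl7, so each was still lower in colonies.

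Ccl20, the ligand of Ccr6 and an attractant of dendritic cells and some T cells, gave signals not far above the bottom of the scale. It had 4.58, 4.57 and 4.54 in RT101 colonies, against 4.98 and 5.02 in RT101 monolayer cells. It had 4.65, 4.42 and 4.56 in bFGF-JB6 colonies, against 4.28, 4.37 and 4.32 in bFGF-JB6 monolayer cells. The colonies of both lines overlapped, between the 2 monolayers. Ccl20 fell by 0.44 (SE 0.09, 1.36-fold) in RT101 colonies. The bFGF-JB6 difference of 0.23 (SE 0.08) was not called. It passed, unchanged in size, when genes with several probe sets were averaged, and it passed as 0.29 without bFGF-JB6 colonies replicate 2.

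The change in colonies itself was called different between the lines for 9 of the 10 genes. It was higher in RT101 than in bFGF-JB6 for 4 (Ccl7 by 3.20, Ccl2 by 2.61, Ccl8 by 1.81 and Ccl5 by 1.66), where 15.0% of all genes were called so. It was lower in RT101 for 5 (Cxcl12, Cxcl5, Cxcl1, Ccl20 and Cxcl10, with -2.99, -0.96, -0.69, -0.67 and -0.40), where 12.7% of all genes were. The 4 called higher are CC chemokine genes, and 4 of the 5 called lower are CXC genes. Both comparisons share no arrays, but the choice of genes rested on them, so nothing is read from this split.

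Between the attached cells of the lines, 5 members were called higher in RT101 (Cxcl12 by 1.97, Cxcl10 by 1.30, Cxcl5 by 0.84, Cxcl1 by 0.83 and Ccl20 by 0.68) and 3 lower (Ccl8, Ccl7 and Ccl2), where 23.2% of all genes were called higher and 21.2% lower. Ccl8 was lower in RT101 monolayer cells by a log2 difference of -4.39 (21.0-fold) and Ccl7 by -3.30 (9.83-fold), and Ccl2 by -1.72 (3.30-fold). The Ccl5 difference of -0.27 (SE 0.16) was not called, although its arrays did not overlap, and it was called without bFGF-JB6 colonies replicate 3, an array outside this contrast that adds to the shared spread.

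Between colonies, 3 members were called higher in RT101 (Ccl5 by 1.39, Cxcl10 by 0.90 and Ccl2 by 0.89) and 2 lower (Ccl8 with -2.58 and Cxcl12 with -1.02), where 22.7% of all genes were called higher and 20.7% lower. Cxcl1, Cxcl5, Ccl7 and Ccl20 were called between monolayers and not between colonies. Their colony differences were 0.14 (interval -0.05 to 0.34) for Cxcl1, -0.13 (-0.30 to 0.05) for Cxcl5, -0.10 (-0.37 to 0.17) for Ccl7 and 0.02 (-0.16 to 0.19) for Ccl20. Cxcl12 and Ccl2 changed sides: Cxcl12 was higher in RT101 among monolayers and lower among colonies, and Ccl2 the reverse.

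The size of the difference between lines was smaller in colonies than in monolayers for 9 of the 10 members, where it was for 55.1% of all 12393 genes. Among the 8 members called between monolayers it was smaller for 8, where it was for 70.7% of the 5504 genes called there. Ccl5 was the exception, with a difference of 1.39 between colonies and -0.27 between monolayers. These differences were part of what chose the genes, and the shares among all genes are given for that reason.

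**Figure D3:**
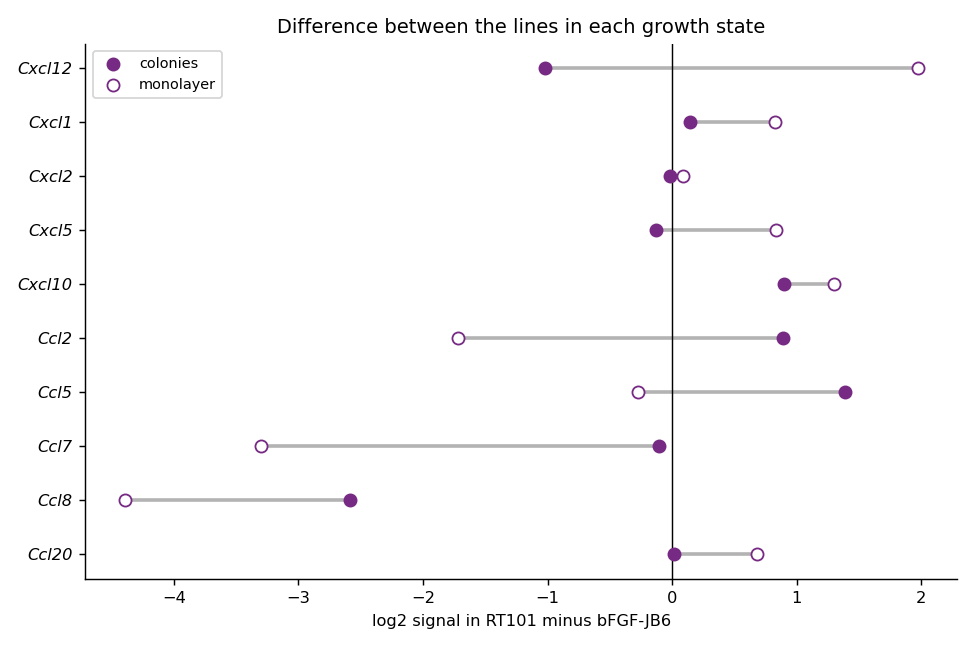
Log2 signal in RT101 minus bFGF-JB6 (horizontal axis) for each gene, in colonies (filled) and in monolayer cells (open), joined by a line. Filled points lie nearer to 0 than open ones for all genes but Ccl5, and Ccl8 keeps the widest gap in both states (-2.58 in colonies and -4.39 in monolayer cells).

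Of 23 receptor genes listed, 21 were measured, of which 9 lay at or below the lower quartile on all arrays and 7 above it on all arrays. Among the 9 were Cxcr4, the signalling receptor of Cxcl12, with group means between 2.56 and 2.72, Ccr2, the main receptor of Ccl2 and Ccl7, between 2.76 and 3.05, and Ccr8 between 2.75 and 2.94. Group means of Ccr6, the receptor of Ccl20, lay between 3.73 and 3.84, and those of Cxcr2 between 3.67 and 4.05. No receptor was called in RT101 colonies by limma (0 higher and 1 lower at an unadjusted p of 0.05). In bFGF-JB6 colonies 1 was called higher and 3 lower. Among all genes 17.0% were called higher and 15.4% lower in RT101 colonies, and 14.1% and 15.3% in bFGF-JB6 colonies. The median change of the receptors was 0.02 in RT101 and 0.03 in bFGF-JB6, close to that of all genes (-0.01 and 0.03).

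Ackr3, the atypical receptor that takes up and degrades Cxcl12, was lower in bFGF-JB6 colonies, where Cxcl12 was higher. It had 4.56, 4.59 and 4.75 in RT101 colonies, against 4.77 and 5.10 in RT101 monolayer cells. It had 4.69, 4.80 and 4.95 in bFGF-JB6 colonies, against 7.19, 7.19 and 7.05 in bFGF-JB6 monolayer cells. The bFGF-JB6 monolayer alone was high. Ackr3 fell by 2.33 in bFGF-JB6 colonies (SE 0.11, 5.04-fold, limma adjusted p = 2.49e-09), and the RT101 difference of -0.30 (SE 0.12) was not called (adjusted p = 0.0675). That RT101 difference was called with median centring, with array weights, without bFGF-JB6 colonies replicate 3 and, as -0.47, without RT101 monolayer replicate 1.

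Cxcr3, the receptor of Cxcl10, and Ccr1, a receptor of Ccl5 and Ccl7, were also lower in bFGF-JB6 colonies. Cxcr3 had 7.40, 6.68 and 7.20 there, against 8.17, 7.96 and 7.98 in bFGF-JB6 monolayer cells, and fell by 0.94 (SE 0.15, limma adjusted p = 0.000292). Ccr1 had 6.04, 5.51 and 6.08 in bFGF-JB6 colonies, against 7.21, 7.08 and 7.11 in bFGF-JB6 monolayer cells, and fell by 1.26 (SE 0.15, limma adjusted p = 3e-05), while its other probe set fell by 0.35 (adjusted p = 0.048). In RT101 both were low in either state, Cxcr3 at 4.09 to 4.36 and Ccr1 at 3.06 to 3.54. The receptor called higher in bFGF-JB6 colonies was Cx3cr1, by 0.42 (SE 0.09), and its other probe set gave -0.01 there.

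**Figure D4:**
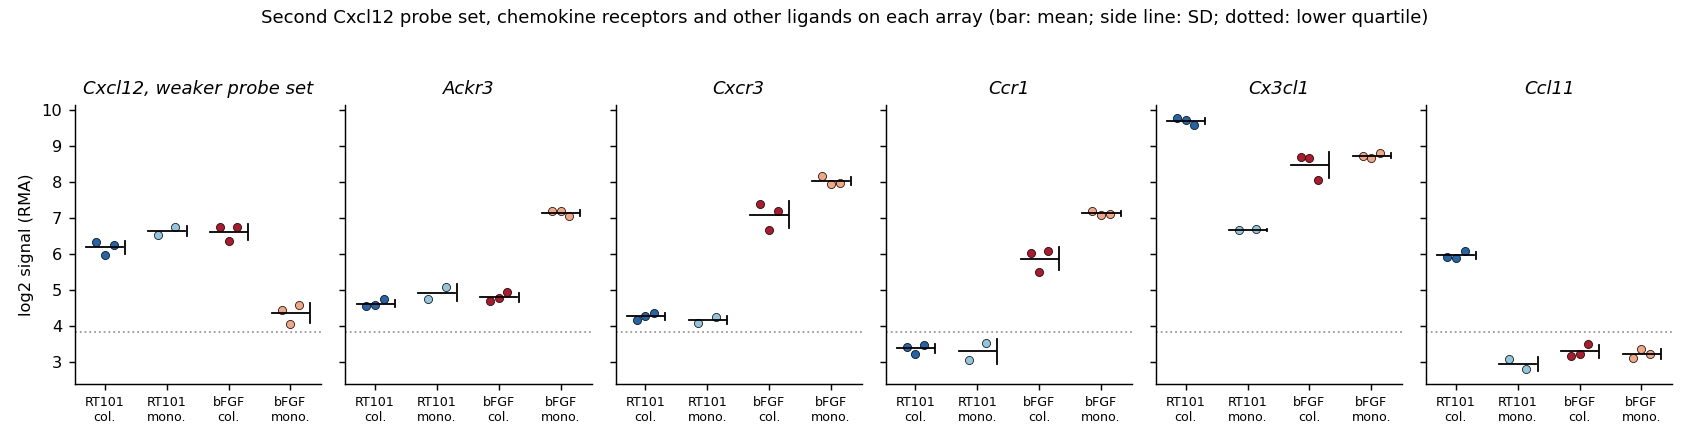
Log2 signal on every array of the 4 groups for the weaker Cxcl12 probe set, 3 receptors and 2 further ligands, with the mean, the SD and, dotted, the lower quartile of all values. Ackr3 is high in bFGF-JB6 monolayer cells alone (7.05 to 7.19), Cxcr3 and Ccr1 are higher in both bFGF-JB6 groups than in RT101, and Ccl11 leaves the bottom of the scale in RT101 colonies alone (5.90 to 6.09).

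Most other ligand genes were not called, where 17.0% of all genes were called higher in RT101 colonies and 14.1% in bFGF-JB6 colonies. Of 11 measured ligands of the CXC and smaller families outside the members, 1 was called higher in RT101 colonies and 1 in bFGF-JB6 colonies, with median changes of -0.00 and 0.13. The RT101 gene was Cx3cl1, whose product fractalkine is made on the cell surface and binds Cx3cr1. Cx3cl1 had 9.77, 9.74 and 9.60 in RT101 colonies, against 6.66 and 6.70 in RT101 monolayer cells, a difference of 3.02 (SE 0.16, 8.11-fold, limma adjusted p = 7.17e-09). It had 8.71, 8.67 and 8.07 in bFGF-JB6 colonies, against 8.74, 8.66 and 8.80 in bFGF-JB6 monolayer cells, which overlapped. Its other probe sets gave 2.04 and 0.33 in RT101, the first called and the second not (limma adjusted p = 0.187). In bFGF-JB6 colonies they gave -0.02 and -0.77, the first not called and the second called lower (limma adjusted p = 0.0025), so which probe sets of Cx3cl1 were called differed in both lines. Of 13 measured CC ligands outside the members, 2 were called higher in RT101 colonies, Ccl11 and Ccl9, and 1 in bFGF-JB6 colonies, Ccl22.

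Ccl9, a neighbour of Ccl5 and a ligand of Ccr1, had 6.11, 5.56 and 6.08 in RT101 colonies, against 5.17 and 5.28 in RT101 monolayer cells. The difference of 0.69 (SE 0.18, limma adjusted p = 0.00936) was not called without RT101 monolayer replicate 1, where it was 0.64. Ccl22 had 4.67, 4.86 and 4.73 in bFGF-JB6 colonies, against 4.45, 4.47 and 4.41 in bFGF-JB6 monolayer cells. In bFGF-JB6 the CXC ligand called higher was Cxcl9, with 3.46, 3.36 and 3.66 in colonies, against 3.03, 3.12 and 3.18 in monolayer cells. All 6 values lay below the lower quartile, and without bFGF-JB6 monolayer replicate 1 or bFGF-JB6 colonies replicate 3 the difference, 0.35 or 0.31, was not called.

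The next list holds genes of the NF-kB and cytokine route that induces chemokine genes. Of 27 measured, 11 were called higher and 1 lower in RT101 colonies and 9 higher and 1 lower in bFGF-JB6 colonies. Among all genes 17.0% were called higher and 15.4% lower in RT101 colonies, and 14.1% and 15.3% in bFGF-JB6 colonies. The list had median changes of 0.34 and 0.19, and all genes had -0.01 and 0.03. This list, like the others, was chosen with earlier results known, so nothing is read from the counts. Tlr2, a receptor for bacterial lipoproteins, had 7.91, 7.90 and 7.73 in RT101 colonies, against 5.62 and 5.68 in RT101 monolayer cells. It had 6.18, 6.32 and 6.35 in bFGF-JB6 colonies, against 4.75, 4.53 and 4.61 in bFGF-JB6 monolayer cells. Tlr2 rose in both lines, by 2.20 (SE 0.10, limma adjusted p = 2.67e-09) in RT101 and 1.65 (SE 0.09, adjusted p = 1.78e-08) in bFGF-JB6.

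3 genes of that route rose mainly in RT101 colonies. Il1r1, the signalling receptor of interleukin 1, had 8.31, 8.27 and 8.18 in RT101 colonies, against 6.47 and 6.39 in RT101 monolayer cells, a rise of 1.82 (SE 0.09), while in bFGF-JB6 it rose by 0.32 (SE 0.08). Nfkbiz, a nuclear partner of NF-kB, had 9.90, 10.03 and 10.07 in RT101 colonies, against 8.13 and 8.01 in RT101 monolayer cells, a rise of 1.93 (SE 0.14). Cebpd, a transcription factor of the acute phase response, had 10.88, 10.93 and 10.85 in RT101 colonies, against 9.30 and 9.27 in RT101 monolayer cells, a rise of 1.60 (SE 0.09). In bFGF-JB6 the differences of 0.17 (SE 0.12) for Nfkbiz and -0.07 (SE 0.08) for Cebpd were not called, though Nfkbiz was, by 0.31, without bFGF-JB6 colonies replicate 1. The weaker probe set of Cebpd gave 0.04 in RT101. The RT101 change exceeded the bFGF-JB6 change by 1.50 for Il1r1, 1.77 for Nfkbiz and 1.67 for Cebpd, with limma adjusted p-values of 5.9e-07, 6.98e-06 and 2.49e-07.

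Interferon signalling genes act upstream of Cxcl10. Of 15 measured, 6 were called higher and 0 lower in RT101 colonies by limma, the same at an unadjusted p of 0.05. In bFGF-JB6 colonies 3 were higher and 3 lower. Among all genes 17.0% were called higher and 15.4% lower in RT101 colonies, and 14.1% and 15.3% in bFGF-JB6 colonies. The list had median changes of 0.16 and 0.01, and all genes had -0.01 and 0.03. Irf9, a subunit of the factor that answers type I interferon, had 5.61, 5.64 and 5.75 in RT101 colonies, against 4.84 and 5.26 in RT101 monolayer cells. It had 5.76, 5.77 and 5.82 in bFGF-JB6 colonies, against 7.01, 7.15 and 7.19 in bFGF-JB6 monolayer cells. Irf9 rose by 0.62 (SE 0.12) in RT101 colonies and fell by 1.33 (SE 0.11) in bFGF-JB6 colonies, a difference of 1.95 between the changes (limma adjusted p = 7.55e-07).

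Irf7, a factor that amplifies the interferon response, had 4.41, 4.70 and 4.53 in bFGF-JB6 colonies, against 6.05, 5.94 and 6.07 in bFGF-JB6 monolayer cells, and fell by 1.47 (SE 0.11, limma adjusted p = 3.17e-07). Its RT101 difference of 0.16 (SE 0.12) was not called. Cxcl10 was higher in the same bFGF-JB6 colonies in which Irf7 and Irf9 were lower. Stat2, of the same list, was also lower there, with -0.95 (SE 0.21), and higher in RT101 colonies, by 0.88 (SE 0.24). Irf1, another activator of Cxcl10, rose in both lines, by 0.95 (SE 0.10) in RT101 and 0.48 (SE 0.09) in bFGF-JB6 colonies. The part of any of these genes in the Cxcl10 changes was not tested.

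Another list holds genes that destabilise or stabilise chemokine messages. Of 8 measured, 4 were called higher and 0 lower in RT101 colonies by limma, and 0 higher and 1 lower in bFGF-JB6 colonies. At an unadjusted p of 0.05 these were 4 and 0, and 0 and 2. Among all genes 17.0% were called higher and 15.4% lower in RT101 colonies, and 14.1% and 15.3% in bFGF-JB6 colonies. The list had median changes of 0.28 and -0.01. Zc3h12a, an RNase that degrades cytokine messages, had 6.09, 6.10 and 6.17 in RT101 colonies, against 4.68 and 4.64 in RT101 monolayer cells, a rise of 1.46 (SE 0.11, limma adjusted p = 1.81e-07). In bFGF-JB6 it had 6.18, 6.06 and 5.81 in colonies, against 5.90, 5.82 and 5.88 in monolayer cells. These did overlap, through replicate 3 of the colonies, and without that array the difference of 0.25 was called.

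Of 14 measured enzymes and glycan genes that cut or hold chemokines, 8 were called higher and 0 lower in RT101 colonies by limma. At an unadjusted p of 0.05 these were 9 and 0. In bFGF-JB6 colonies 5 were called higher and 3 lower. Among all genes 17.0% were called higher and 15.4% lower in RT101 colonies, and 14.1% and 15.3% in bFGF-JB6 colonies. The list had median changes of 0.49 and -0.01. Mmp2, a protease known to inactivate Cxcl12 and Ccl7, had 6.94, 6.93 and 6.88 in RT101 colonies, against 5.04 and 4.53 in RT101 monolayer cells. It had 11.45, 11.54 and 11.66 in bFGF-JB6 colonies, against 9.44, 9.21 and 9.22 in bFGF-JB6 monolayer cells. Mmp2 rose by 2.13 (SE 0.13, limma adjusted p = 5.42e-08) in RT101 and 2.26 (SE 0.12, adjusted p = 1.38e-08) in bFGF-JB6. Mmp14, the membrane protease that activates Mmp2, rose by 0.78 (SE 0.10) in RT101 and 1.63 (SE 0.09) in bFGF-JB6.

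Other proteases differed between the lines. Mmp13, a collagenase, had 11.33, 11.42 and 11.45 in bFGF-JB6 colonies, against 8.24, 8.24 and 8.02 in bFGF-JB6 monolayer cells, a rise of 3.23 (SE 0.12, limma adjusted p = 3.8e-10), while the RT101 rise of 0.61 (SE 0.13) was not called without RT101 monolayer replicate 1, where it was 0.38. Mmp9, a gelatinase, had 7.92, 7.91 and 7.67 in RT101 colonies, against 4.93 and 5.37 in RT101 monolayer cells, a rise of 2.68 (SE 0.14, limma adjusted p = 8.58e-09). In bFGF-JB6 colonies Mmp9 was called lower, with -0.46 (SE 0.13), while its other probe set gave -0.26, not called. Mmp1a was called lower there with -3.01 (SE 0.13, limma adjusted p = 2.01e-09), and Mmp3 with -0.25 (SE 0.09). The Mmp1a difference in RT101, -0.12 (SE 0.15), was not called. Dpp4, the peptidase that trims Cxcl12, Cxcl10 and Ccl5, was at or below the lower quartile on all 11 arrays, between 3.31 and 3.64, and was not called in either line.

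Markers of other cells were set beside these values, since many sources of chemokines are leukocytes or stromal cells. Of 4 measured leukocyte markers none was called by limma in colonies of either line (at an unadjusted p of 0.05, 0 in RT101 and 1 higher in bFGF-JB6), and their summed linear signal was 72 to 80 in RT101 colonies, 67 to 80 in RT101 monolayer cells, 73 to 101 in bFGF-JB6 colonies and 68 to 77 in bFGF-JB6 monolayer cells. Ptprc, the pan-leukocyte marker CD45, lay between 2.33 and 2.72 and Adgre1, the macrophage marker F4/80, between 2.86 and 3.42 on the arrays. These 2 markers were thus at the bottom of the scale in all 4 groups. Other leukocyte markers were not: Cd3e had group means between 5.36 and 5.64 and Cd79a between 3.96 and 4.14, so that 2 of the 4 lay above the lower quartile on all arrays and 2 at or below it.

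Beside the marker counts that follow, 17.0% of all genes were called higher and 15.4% lower in RT101 colonies. In bFGF-JB6 colonies 14.1% of all genes were called higher and 15.3% lower. Of 9 measured macrophage markers 2 were higher and 0 lower in RT101 colonies by limma (3 and 2 at an unadjusted p of 0.05). In bFGF-JB6 colonies 3 of these markers were higher and 1 lower. Their summed signal was 336 to 360 in RT101 colonies, against 288 to 293 in RT101 monolayer cells, and 831 to 891 in bFGF-JB6 colonies, against 609 to 618 in bFGF-JB6 monolayer cells. Most of it came from Cd14, with group means of 7.63 in RT101 colonies, 7.30 in RT101 monolayer cells, 8.63 in bFGF-JB6 colonies and 8.69 in bFGF-JB6 monolayer cells, and in bFGF-JB6 also from Cd68, with 8.31 in colonies and 6.45 in monolayer cells. Csf1r, the receptor of macrophage colony stimulating factor, had 4.81 in RT101 colonies, 4.76 in RT101 monolayer cells, 5.98 in bFGF-JB6 colonies and 5.06 in bFGF-JB6 monolayer cells, and was called higher in bFGF-JB6 colonies. Mrc1 was the marker called lower there, with 3.81 in colonies and 4.45 in monolayer cells. Lyz2 was called higher in colonies of both lines. It had 5.81 in RT101 colonies, 5.18 in RT101 monolayer cells, 4.69 in bFGF-JB6 colonies and 4.34 in bFGF-JB6 monolayer cells. Of the 9 markers 3 lay above the lower quartile on all arrays and 3 at or below it. The part of these markers in the chemokine changes was not tested. Of 8 fibroblast markers 5 were higher and 0 lower in RT101 colonies by limma, the same at an unadjusted p of 0.05, and 4 were higher and 1 lower in bFGF-JB6 colonies. Their summed signal was 10035 to 10528 in RT101 colonies, against 3765 to 4343 in RT101 monolayer cells, and 6146 to 6689 in bFGF-JB6 colonies, against 5807 to 6273 in bFGF-JB6 monolayer cells. Of 5 neutrophil markers 1 was higher in RT101 colonies (Camp) and 1 in bFGF-JB6 colonies (S100a8). Their summed signal was 109 to 117 in RT101 colonies, 78 to 90 in RT101 monolayer cells, 2948 to 3371 in bFGF-JB6 colonies and 2366 to 2630 in bFGF-JB6 monolayer cells. In bFGF-JB6 nearly all of it was S100a8, with group means of 11.61 in colonies and 11.24 in monolayer cells, where S100a9, Camp, Ngp and Elane lay between 3.35 and 4.90. Of 5 endothelial markers 0 were called in either line by limma, and 0 at an unadjusted p of 0.05. In RT101 colonies 5 of the 8 fibroblast markers were thus higher, as were Ccl8 and Ccl7. Col1a2, Lum and Thy1 were not called there, with differences of -0.01, -0.04 and 0.01. The largest part of the summed rise came from Col3a1, with 12.38 in RT101 colonies and 9.54 in RT101 monolayer cells. In bFGF-JB6 colonies 4 fibroblast markers were higher where Ccl7 was lower, and Dcn was lower where Ccl8 was higher. The part of the fibroblast markers in the changes was not tested. The labels name only cultured cells of the lines, and which cells gave each marker signal was not tested. In such bulk RNA, a change in the share of expressing cells and a change in RNA per cell cannot be told apart.

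JB6 cells come from mouse epidermis, and their keratinocyte markers were checked. Of 8 measured, 4 lay above the lower quartile on all arrays and 3 at or below it. Cdh1 had group means between 2.39 and 2.45 and Krt18 between 3.04 and 3.14, at the bottom of the scale. Krt5 had group means between 4.98 and 5.18, Krt8 between 5.22 and 5.43 and Krt15 between 4.15 and 4.29. Itga6 was the 1 marker called lower in colonies of each line, with 8.60 in RT101 colonies, 9.21 in RT101 monolayer cells, 8.17 in bFGF-JB6 colonies and 9.95 in bFGF-JB6 monolayer cells. The fibroblast genes Col1a2, with group means of 10.89 to 11.30, and Col3a1, of 9.54 to 12.38, were well above the bottom in all groups. Lum, between 2.99 and 3.14, and Thy1, between 3.43 and 3.67, were at the bottom in all groups, and Dcn had 5.84 in RT101 colonies, 4.51 in RT101 monolayer cells, 9.66 in bFGF-JB6 colonies and 10.63 in bFGF-JB6 monolayer cells. Of the 8 fibroblast markers 6 lay above the lower quartile on all arrays and 2 at or below it. The names of the lines are kept as labelled.

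For the 3 members with the widest range of group means, the genes most like them over the 11 arrays were sought among 2861 genes whose group means spanned at least 1 unit. Pearson's r serves only to rank them, since the arrays form 4 groups and many genes follow a like pattern. The 4 genes nearest to Ccl8 were Ralgds, Mxra8, Bhlhe40 and Rgs2, with r of 0.9936 to 0.9938. Bhlhe40, for example, had means of 8.58 in RT101 colonies, 6.43 in RT101 monolayer cells, 9.78 in bFGF-JB6 colonies and 8.36 in bFGF-JB6 monolayer cells. Nearest to Cxcl12 were Add3, Akr1c14, Foxc1 and Hcfc1r1, with r of 0.9675 to 0.9817. Akr1c14 had 5.63 in RT101 colonies, 4.16 in RT101 monolayer cells, 7.23 in bFGF-JB6 colonies and 3.0 in bFGF-JB6 monolayer cells. Nearest to Ccl7 were Pold4, Csrp2, Cdc42ep5 and Tnc, with r of 0.9811 to 0.9908. Tnc, which encodes the matrix protein tenascin C, had 6.59 in RT101 colonies, 5.08 in RT101 monolayer cells, 6.61 in bFGF-JB6 colonies and 7.85 in bFGF-JB6 monolayer cells.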

How the data were processed

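Messenger RNA of 11 samples was measured on 1 Affymetrix array each. The deposited values are log2 signals from RMA, which the authors ran per the submitters' processing notes. Its version is not given there. RMA corrects background, equalises the arrays' distributions and summarises probes. It gives no detection calls and compresses weak signals. There are no counts, so the number of arrays limits the precision.

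Groups came from the titles and descriptions. Of 22690 probe sets, 64 were controls, 20380 named 1 gene symbol in the platform annotation, 691 several and 1555 none. By gene number 20351 were found in the reference table and no symbol changed. The brightest single-gene probe set stood for each of 12393 genes, of which 4956 had several. Symbols without one were not analysed here.

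Limma 3.58.1 in R 4.3.3 was fitted to all 11 arrays by group with eBayes (7 residual and 6.12 prior degrees of freedom) and Benjamini-Hochberg adjustment over all genes. SE is the moderated standard error and intervals are at 95%. It was tested on simulated data. The members, 7 pathway lists and 6 marker lists were chosen with earlier results of these data known. Beside the members and a few receptors and regulators always named, the rule named from each list up to 4 called genes with the largest change per colony contrast and up to 2 in others. Chromosome neighbours, Ccl12, Ccl1 and single marker genes fall outside it.

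Title numbers pair the colonies of the 2 lines by the deviations of same-numbered arrays from their group means (r = 0.32, 0.111 and 0.225), not from the design. By title numbers the other pairs of groups gave r of -0.253 to 0.076. By description letters the monolayers of the 2 lines gave 0.174 and 0.148, and RT101 colonies and monolayer gave 0.15 and -0.134. Alternatives were replicate blocks, array weights, cyclic loess, median centring, averaged or separately tested probe sets, genes above the median signal, a robust variance with trend, a fit without the other groups, a minimum of 2-fold and leaving out each array. Leaving out both arrays of raised 3' Gapdh signal was chosen after seeing the data. Plots used matplotlib 3.10.9 in Python 3.11.15.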

Additional observations from a re-analysis of the deposited data

Results flagged for a closer look

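The change in colonies was called different between the lines for 9 of the 10 chemokine genes and 28 of 45 other named genes. Limma tested the RT101 change minus the bFGF-JB6 change, at an adjusted p of 0.05. In this test 15.0% of all genes were called higher and 12.7% lower. Beside the few always named, the other genes were named for being called in these same contrasts. The chemokine genes were chosen by their changes, so nothing is read from these counts. For the chemokine genes the RT101 change minus the bFGF-JB6 change, on the log2 scale, was -2.99 for Cxcl12, -0.96 for Cxcl5, -0.69 for Cxcl1, -0.67 for Ccl20 and -0.40 for Cxcl10. It was 3.20 for Ccl7, 2.61 for Ccl2, 1.81 for Ccl8 and 1.66 for Ccl5. The call held in 13 of 21 alternatives for Cxcl10, 13 of 21 for Nfkbia, 18 of 21 for Irf1 and 7 of 20 for Cx3cr1. No single array was tested for standing apart, since groups held 2 or 3.

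Among other ligands and receptors it was 3.27 for Cx3cl1, 2.95 for Ccl11, 2.03 for Ackr3, 1.34 for Ccr1, 1.13 for Ccl9, 1.04 for Cxcr3 and -0.44 for Cx3cr1. Among genes of the NF-kB route it was 1.77 for Nfkbiz, 1.67 for Cebpd, 1.50 for Il1r1, 1.13 for Ikbke, 0.70 for Nfkbia, 0.54 for Tlr2 and -0.98 for Nfkbib. Among interferon genes it was 1.95 for Irf9, 1.83 for Stat2, 1.63 for Irf7, 1.20 for Tyk2 and 0.47 for Irf1. Among genes of message stability it was 1.31 for Zc3h12a, 1.14 for Zfp36l1 and 0.76 for Traf3ip2. Among proteases and glycan genes it was 3.14 for Mmp9, 2.89 for Mmp1a, 1.91 for Mmp3, 0.82 for Ext1, -0.84 for Mmp14 and -2.62 for Mmp13. These values are of the brightest probe sets. Other probe sets of Ccr1, Cx3cr1 and Cebpd gave 0.23, 0.02 and -0.03, none of them called among all probe sets. Those of Nfkbia gave -0.25, not called, and 1.13 and 0.95, both called. For Cx3cl1, Ccl9, Nfkbiz, Stat2, Zfp36l1, Mmp9 and Mmp14 the other probe sets were called in the same direction.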

How the results depend on the processing

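No called direction of a chemokine gene turned round under the alternatives run. Of 1075 values of the 10 genes over 5 contrasts, apart from the 2-fold minimum, 8 lost a call, all of them the Cxcl10 difference between lines. Another 3 gained one (Ccl20 in bFGF-JB6 colonies in 2 fits and Ccl5 between monolayers), and 16 uncalled values changed sign. With a 2-fold minimum the members called fell to 3 in RT101 colonies, 4 in bFGF-JB6 colonies, 5 for the difference of changes, 5 between monolayers and 3 between colonies, against 7, 8, 9, 8 and 5. In that order of contrasts the genes called fell to 717, 432, 968, 1518 and 1247, against 4013, 3642, 3430, 5504 and 5372. Tested separately, 6451, 5986, 5260, 9093 and 8965 of 22626 probe sets were called. Leaving out 1 array gave 7 members and 3050 to 4548 genes in RT101 colonies, 8 to 9 members and 2995 to 3833 genes in bFGF-JB6 colonies, and 8 to 9 members and 2666 to 3664 genes for the difference. It gave 8 to 9 members and 4607 to 5898 genes between monolayers and 5 members and 4770 to 5558 genes between colonies. Where an RT101 monolayer array was left out, the lone array was assumed to vary like the others. With the title numbers as a replicate block 7, 8, 8, 8 and 5 members and 3887, 3550, 3290, 5391 and 5291 genes were called, in the same order. The only member call this block changed was the Cxcl10 difference, -0.36 (limma adjusted p = 0.0708, between 0.0156 and 0.116 over its alternatives). With the description letters as a block no member call changed. A fall or a small change of Cxcl2, at the bottom of the scale, cannot be judged on these arrays.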
